A study of Sus scrofa with 14 samples.

Results

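The genes described here make fatty acids and sterols or switch that synthesis on. They were ACACA, ACACB, FASN, SCD and SREBF1, which belong to fatty acid synthesis, and HSD17B7, which belongs to sterol synthesis. A probe was taken for one of them when the RefSeq accession in the scanner files belonged to that gene. This gave 20 probes for the 6 genes, out of 6687 named probes for 3020 genes and 43603 probes in all. ACACA had 2 probes, ACACB 3, FASN 3, SCD 9, SREBF1 2 and HSD17B7 1.

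RNA came from mucosal scrapings of jejunum of male piglets of 5 weeks (8.2 kg), taken after small intestinal segment perfusion (SISP). In this technique segments of the gut of a living, anaesthetized animal are closed off with their blood supply intact and perfused, here for 6 h. Each of 7 pigs gave 1 segment that received the digest of saline without onion (Sd, the digestion control) and 1 segment that received an onion digest. Pigs 1, 2 and 4 received the yellow onion digest (YOd) and pigs 5, 6, 7 and 8 the white onion digest (WOd), which makes 14 arrays with 7 Sd, 3 YOd and 4 WOd samples. All digests had been treated in vitro with pepsin, pancreatin and bile salts. The onion digests were diluted less than the Sd digest, and in peptone instead of saline solution, so the onion, the strength of the digest fluid and the diluent cannot be told apart. No pig received both onions, so the onion and the set of pigs cannot be told apart either.

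Fatty acid synthesis starts when acetyl-CoA carboxylase makes malonyl-CoA, which fatty acid synthase joins into palmitate and stearoyl-CoA desaturase then converts, with other saturated acyl chains, to monounsaturated fatty acids. Sterol synthesis builds cholesterol from acetyl-CoA through mevalonate, squalene and lanosterol. Both routes are controlled by the sterol regulatory element-binding proteins, which are held back in the endoplasmic reticulum by SCAP and the INSIG proteins when sterols are plentiful. In the small intestine both routes work beside the uptake of dietary lipid by enterocytes.

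Levels are the processed signal of a probe relative to its array's 75th percentile, on a log2 scale, and a value under -4.43 was raised to that floor. Different probes bind with different strength, so levels were compared between arrays and not between genes. Ratios are the log2 level in the onion segment minus that in the Sd segment of the same pig. Probes well above background made up 50.05% to 70.7% of those on an array. The lowest shares were on the Sd array of pig 8 (50.05%) and the WOd array of pig 7 (54.9%). These 2 arrays also had the most outlier spots, 462 and 282. Enterocyte markers were bright on all arrays, and the mean log2 level of APOA1, APOA4, FABP2 and ANPEP was between 6.52 and 7.55 in the Sd segments. Pigs 2 and 7 stood apart, because their 2 arrays lay on different slides and their Sd arrays were scanned in a later session. The counts of genes called were also made without them. The scrapings are mixed tissue, so fewer cells of a type and less RNA per cell cannot be told apart.

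ACACA and ACACB encode the acetyl-CoA carboxylases, the first committed step of fatty acid synthesis in the cytosol (ACACA) and the enzyme at the mitochondrial membrane that restrains fatty acid oxidation (ACACB). ACACA was the 1 gene of the 6 that passed the thresholds in any comparison: it fell in YOd/Sd, in 2 of 3 pigs, and did not pass in WOd/Sd. Its log2 level was -2.54, -2.56 and -2.71 in the Sd segments of pigs 1, 2 and 4, and -3.58, -2.53 and -3.55 in their YOd segments. The YOd segments of pigs 1 and 4 thus lay below all 3 Sd segments, and that of pig 2 lay at the Sd level. In pigs 5, 6, 7 and 8 the level was -3.52, -2.63, -2.59 and -3.72 with Sd and -3.30, -2.72, -2.65 and -2.89 with WOd, and these groups overlapped. The log2 ratio was -1.03, 0.03 and -0.85 in the YOd pigs and 0.22, -0.09, -0.06 and 0.82 in the WOd pigs. The Sd segments of pigs 5 and 8 were as low as the YOd segments of pigs 1 and 4, so the spread between control segments (SD 0.50, n = 7) was close to the size of the change.

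In the limma fit with the pig as a block, ACACA fell by 0.62 on the log2 scale in YOd/Sd (SE 0.23, raw p 0.032), and the adjusted p over 2450 genes was 0.386. The thresholds of the study were a raw p below 0.05 and a change of more than 1.5-fold. By them ACACA was the 1 of 6 genes called in YOd/Sd, where 4.53% of all genes were called and 0.939% were called lower. In WOd/Sd no gene of the 6 was called, against 1.19% of all genes, and ACACA differed by 0.22 (SE 0.20, raw p 0.29). Over the 7 pigs none of the 6 was called either, against 1.25% of all genes. Of the 6, only ACACB had a raw p below 0.05 over the 7 pigs, and 7% of all genes did. The difference between the onions was -0.84 for ACACA (SE 0.32, raw p 0.028, adjusted p = 0.852), the 1 member called in that comparison, where 3.62% of all genes were called and 1.37% were called lower. One gene of 6 is a small count. No gene had a limma adjusted p below 0.05 in the 4 comparisons, while a raw p below 0.05 held for 275 genes with YOd, 67 with WOd, 168 over all pigs and 101 for the difference. Exact sign-flip permutation tests over pigs cannot go below p = 0.25 with 3 pigs or 0.125 with 4, and for ACACA over the 7 pigs this test gave p = 0.58, where the smallest possible was 0.016.

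Across the whole table, the YOd/Sd fold changes had a median of 0.14 on the log2 scale. Relative to the median ratio of all genes in each pig, ACACA was -0.75, FASN -0.61, SCD -0.50 and SREBF1 -0.38 in YOd/Sd. ACACA and FASN passed the thresholds there, where 84 of 2450 genes were called and 46 were called lower. The FASN probe stands in a list that the study selected on these arrays, so its values are a description.

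The ACACA signal was low, between 33.3 and 121.7 units of processed signal over the arrays, and on the Sd array of pig 8 it was not well above background. The second ACACA probe, at the floor on 4 of 14 arrays, showed no such change, with -0.05 (SE 0.15) in YOd/Sd. The call in YOd/Sd was lost when pig 1 (-0.41) or pig 4 (-0.50) was left out, with normexp background correction (-0.21), with the authors' processed values (-0.44), and with the mean of both probes (-0.33). With a floor at the 20th percentile, no floor or no pig block the value stayed at -0.62 and the raw p was 0.055, 0.071 and 0.095. Without pig 2, whose YOd segment had not moved, it was -0.94, and the limma adjusted p of 0.042 then passed, as it did for 78 of 2480 genes.

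The ACACB probe that could be tested was dim as well, and both arrays of pig 7 were at the floor. It stood at a log2 level of -2.66, -4.11 and -2.76 with Sd and -2.10, -2.96 and -2.93 with YOd in pigs 1, 2 and 4, and the ratios were 0.56, 1.15 and -0.17. In pigs 5, 6 and 8 the level was -4.12, -2.86 and -3.17 with Sd and -3.48, -2.69 and -3.08 with WOd. ACACB was thus higher with onion in 5 of 7 pigs, opposite in sign to ACACA in pigs 1 and 6. In YOd/Sd it differed by 0.51 (raw p 0.085), and without pig 4 it passed, at 0.85 (raw p 0.0095), in the opposite direction to ACACA. Without that pig, 49 of 2473 genes were called higher. Over the 7 pigs the difference was 0.35 (SE 0.16, raw p 0.0494, adjusted p = 0.652), a fold change under 1.5. Its other 2 probes were at the floor on 14 and 11 of the 14 arrays.

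**Figure D1:**
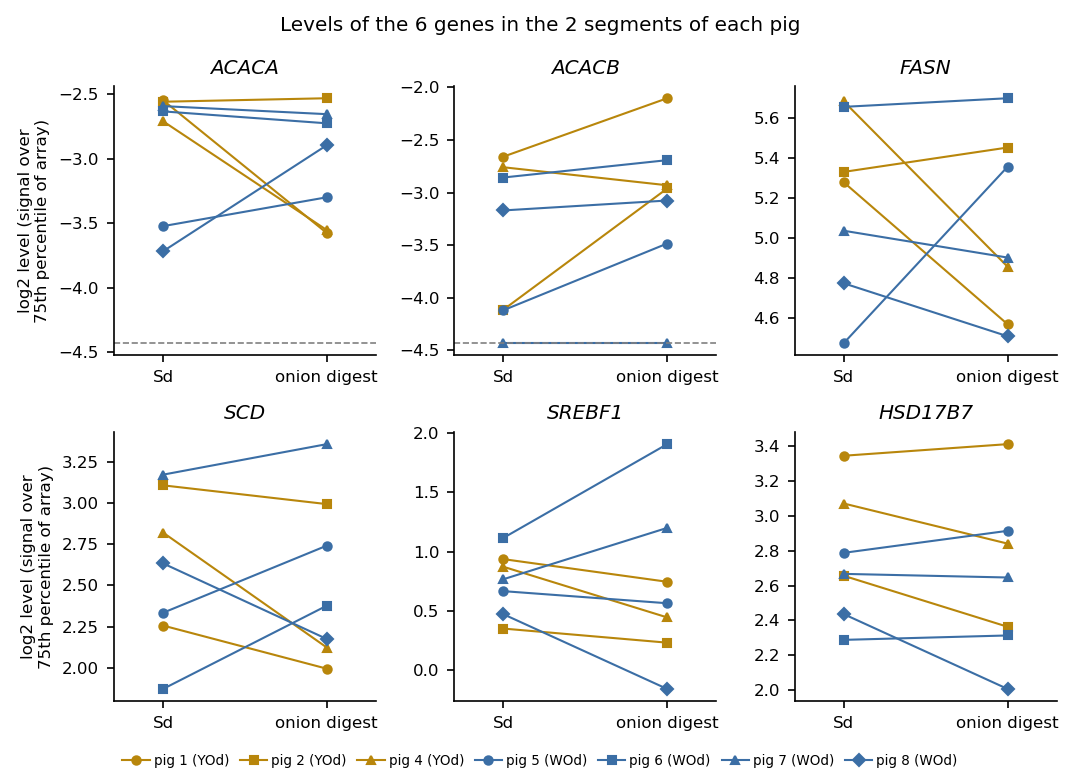
Log2 level (signal over the 75th percentile of the array) of the brightest probe of the 6 genes in the Sd segment and the onion segment of each pig, with 1 line per pig, ochre for YOd and blue for WOd, and the floor of -4.43 dashed for ACACA and ACACB. ACACA and FASN drop in pigs 1 and 4 and not in pig 2, and the lines of the WOd pigs run in both directions.

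FASN encodes fatty acid synthase, the enzyme complex that makes palmitate. It was among the bright genes of the array, with a processed signal between 8555 and 40747 and no saturated spot. The log2 level was 5.28, 5.33 and 5.68 with Sd and 4.57, 5.45 and 4.85 with YOd in pigs 1, 2 and 4. As for ACACA, the YOd segments of pigs 1 and 4 lay below all 3 Sd segments and that of pig 2 did not. The Sd segments of pigs 5 (4.47) and 8 (4.77) were about as low, and the SD of the control segments was 0.45 (n = 7). With WOd the level was 5.35, 5.70, 4.90 and 4.51 in pigs 5 to 8, against 4.47, 5.65, 5.03 and 4.77 with Sd, and the groups overlapped.

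The FASN ratio was -0.71, 0.12 and -0.83 in the YOd pigs and 0.88, 0.04, -0.13 and -0.26 in the WOd pigs. The mean was -0.47 (SE 0.21, raw p 0.067, adjusted p = 0.386) in YOd/Sd and 0.13 (SE 0.22, raw p 0.57) in WOd/Sd, so neither passed in the 3 or 4 pigs, and the SD of the 7 ratios (0.57) was larger than either mean. Without pig 2 the YOd/Sd value was -0.77 with a raw p of 0.0031 in the limma fit, which passed. In that fit 328 of 2480 genes were called and 79 were called lower. Relative to the median of all genes FASN was -0.61 and passed, where 46 of 2450 genes were called lower. The probe of FASN used here also stands in the list of probes that the study selected on these arrays for exceeding 1.5-fold in at least 3 of 7 pigs, so its ratios and their fit are given as a description and are no independent evidence.

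The 3 FASN probes did not move alike. The second probe gave -0.58 (SE 0.21) in YOd/Sd and 0.16 in WOd/Sd, close to the first. The dim FASN probe gave 0.58 (SE 0.34) in YOd/Sd, the opposite sign, and in pig 1 it was 1.52 where the other probes were -0.71 and -1.06.

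SCD encodes stearoyl-CoA desaturase, which makes oleate and palmitoleate. Its brightest probe had a log2 level of 2.26, 3.11 and 2.82 with Sd and 1.99, 2.99 and 2.12 with YOd in pigs 1, 2 and 4, lower in each of the 3 pigs. With WOd it was 2.74, 2.38, 3.36 and 2.17 in pigs 5 to 8, against 2.33, 1.87, 3.17 and 2.63 with Sd. It was higher with WOd in pigs 5, 6 and 7 and lower in pig 8.

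The SCD ratio was -0.26, -0.11 and -0.70 with YOd and 0.41, 0.51, 0.19 and -0.46 with WOd. In the fit this was -0.36 (SE 0.17, raw p 0.072) in YOd/Sd, 0.16 (SE 0.20, raw p 0.44) in WOd/Sd and -0.06 (SE 0.15, raw p 0.69) over the 7 pigs. SCD did not pass in any comparison. The difference between the onions was -0.52 (SE 0.28, raw p 0.095).

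SCD carried 9 probes, more than any other of the 6 genes, and they bind the transcripts of 1 gene, so they repeat the measurement of the same RNA and are no replicates. All 9 were lower in YOd/Sd, from -0.28 to -0.68. In WOd/Sd the 8 probes that were above the floor on every array lay between -0.04 and 0.32. Within single pigs the 8 probes had 1 sign in pigs 1, 4 and 8, all lower, and in pigs 5 and 6, all higher. In pig 7 they disagreed, from -0.69 to 0.32, and the brightest probe, with 0.19, was one of 2 that were higher there. When each probe was tested on its own, 2 SCD probes passed in YOd/Sd (-0.68, SE 0.17, and -0.62, SE 0.26), and the first of these also passed for the difference between the onions (-0.999, raw p 0.0027). Of all probes tested in this way, 654 of 26267 were called lower in YOd/Sd, 1124 of 25464 for the difference and 69 of 25464 over the 7 pigs. The dimmest SCD probe passed over the 7 pigs (-0.85). It had ratios of -2.03 in pig 7 and -2.44 in pig 8 that no other SCD probe showed.

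**Figure D2:**
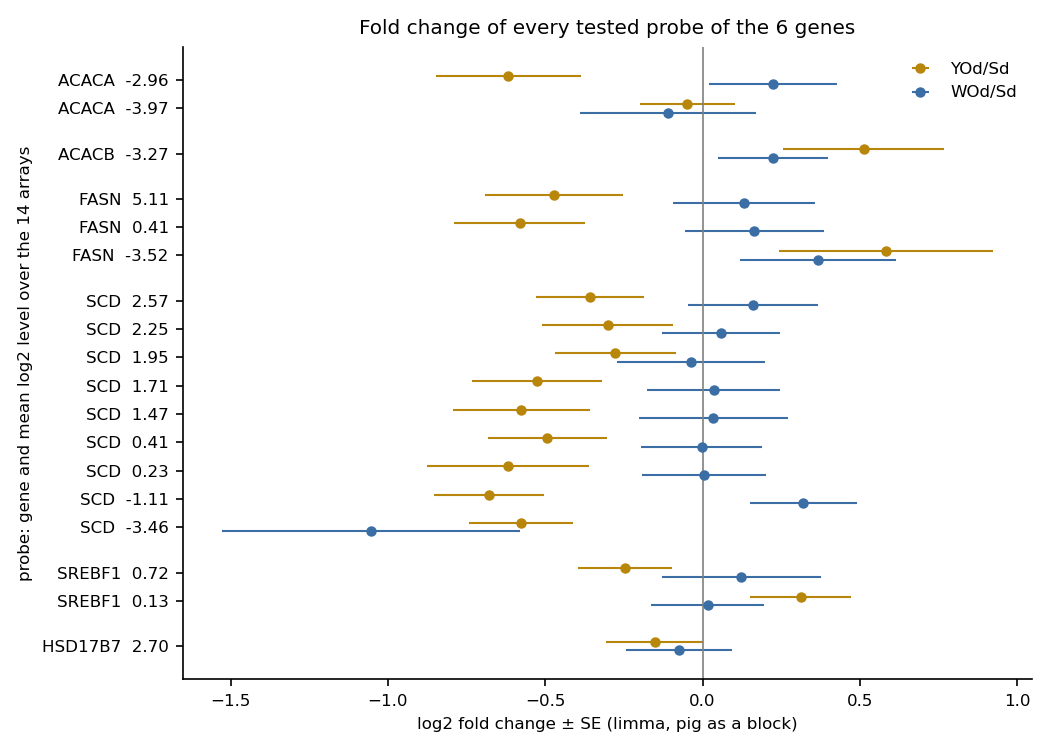
Log2 fold change with its SE in YOd/Sd (ochre) and WOd/Sd (blue) for each tested probe of the 6 genes, labelled with its mean log2 level over the 14 arrays and ordered from bright to dim within a gene. The 9 SCD probes lie left of 0 in YOd/Sd, and the dim FASN probe and the second SREBF1 probe lie on the other side from the brighter probe of their gene.

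SREBF1 encodes the transcription factor that drives the genes of fatty acid synthesis. The log2 level of its brighter probe was 0.94, 0.35 and 0.87 with Sd and 0.74, 0.23 and 0.44 with YOd in pigs 1, 2 and 4, lower in each pig by 0.12 to 0.43. With WOd it was 0.56, 1.91, 1.20 and -0.16 in pigs 5 to 8, against 0.67, 1.12, 0.77 and 0.47 with Sd. The WOd ratios of -0.10, 0.79, 0.43 and -0.63 ran in both directions and had an SD of 0.62. SREBF1 did not pass in YOd/Sd (-0.25, SE 0.15, raw p 0.14), in WOd/Sd (0.12, SE 0.25, raw p 0.63) or over the 7 pigs (-0.04, SE 0.16, raw p 0.84). The second SREBF1 probe was higher in all 3 YOd pigs (0.59, 0.20 and 0.15), so the direction of SREBF1 with YOd depended on the probe.

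HSD17B7 encodes the 3-ketosteroid reductase that works on sterol intermediates after lanosterol. The log2 level of its probe was 3.34, 2.66 and 3.07 with Sd and 3.41, 2.36 and 2.84 with YOd in pigs 1, 2 and 4, and 2.79, 2.29, 2.67 and 2.44 with Sd and 2.91, 2.31, 2.65 and 2.01 with WOd in pigs 5 to 8. It varied least of the 6 genes between the segments of a pig: the 7 ratios ran from -0.43 to 0.13 with an SD of 0.21. Over the 7 pigs it differed by -0.11 (SE 0.10, raw p 0.32), by -0.15 in YOd/Sd (SE 0.15) and by -0.07 in WOd/Sd (SE 0.16), and it did not pass.

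**Figure D3:**
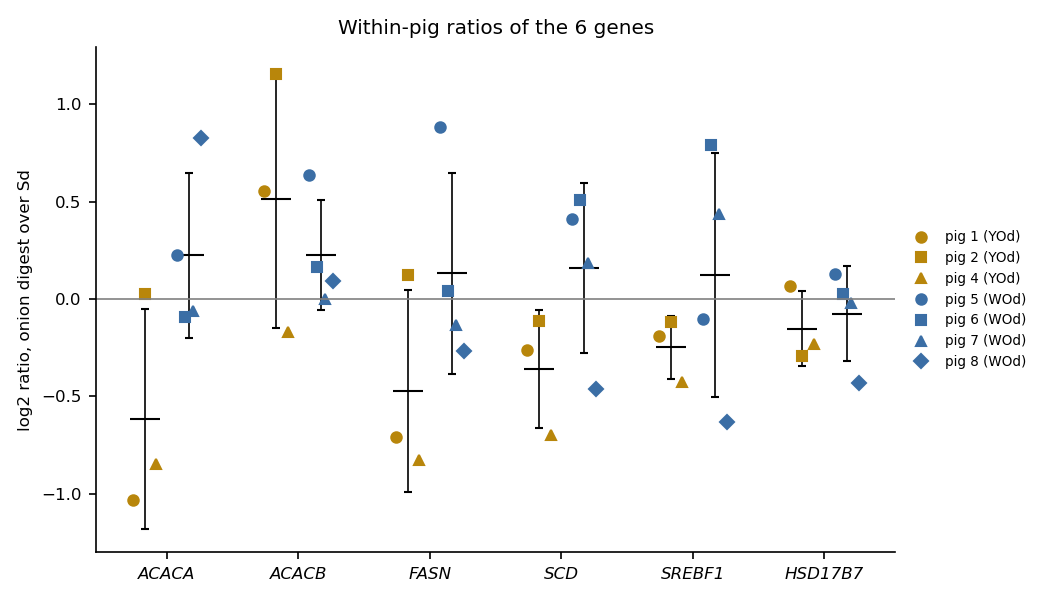
Within-pig log2 ratio, onion minus Sd level, of the 6 genes in each pig (symbols), with the mean and SD over the 3 YOd pigs and the 4 WOd pigs (black). The YOd means of ACACA, FASN, SCD and SREBF1 lie between -0.62 and -0.25 and the WOd means of these genes between 0.12 and 0.22, with SDs of 0.16 to 0.62.

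Whether the genes fell together was read within each pig. In pig 4 all 6 genes were lower with onion, where 30.8% of all genes were lower. In pig 1, 4 of 6 were lower (25.7% of all genes), in pig 8 also 4 of 6 (57.4% of all genes), in pigs 2 and 7, 3 of 6 (43.1% and 37.1%), and in pigs 5 and 6, 1 of 6 (43.7% and 39.1%). Pigs 1, 2 and 4 had received YOd and pig 8 WOd, so neither onion had 1 pattern in all its pigs. The 6 genes were chosen with earlier results known and share both arrays of a pig, so these counts carry no test.

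Across the 7 pigs, the ratios of 15 pairs of the 6 genes were correlated, with exact two-sided permutation tests and Benjamini-Hochberg adjustment over the 15. SCD went closest with the brighter probe of SREBF1, its regulator (Pearson's r = 0.81, exact p = 0.024, adjusted p = 0.32; Spearman's rho = 0.93, exact p = 0.0067, adjusted p = 0.10). FASN and SCD came next (r = 0.76, exact p = 0.043, adjusted p = 0.32; rho = 0.79, exact p = 0.048). Without the 2 pigs farthest from the median of the first gene these were 0.69 (without pigs 4 and 6) and 0.53 (without pigs 4 and 5). With the second SREBF1 probe, an alternative chosen after seeing the data, SCD had r = 0.19 (exact p = 0.67; rho = 0.18, exact p = 0.71). With that probe ACACA had r = -0.74 (exact p = 0.050, not adjusted), against -0.07 with the brighter SREBF1 probe. None of the 15 pairs passed after adjustment.

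HSD17B7, the sterol gene, had r = 0.69 with SCD (exact p = 0.096), 0.59 with SREBF1 (exact p = 0.17), 0.34 with FASN (exact p = 0.47) and -0.39 with ACACA (exact p = 0.37). ACACA and ACACB, the 2 carboxylases, had r = 0.08 (exact p = 0.86). The pairs use both onions together, and within the 3 or 4 pigs of an onion r is a value with no test. SCD with SREBF1 had 0.9998 among the YOd pigs and 0.80 among the WOd pigs, and FASN with SCD 0.77 and 0.59. ACACA with FASN had 0.96 and -0.20, and ACACA with SCD 0.57 and -0.88, so these signs differed between the sets of pigs. Relative to the median of all genes in each pig, SCD with SREBF1 stayed at 0.81 and FASN with SCD was 0.81.

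The genes nearest to the members over the 7 pigs, out of 2400 compared, were not on the lists of lipid genes used below. For FASN they were MYH1 (r = 0.96), HSPA6, STXBP6, DDX39B and CEND1, for SCD they were SRSF6 (r = 0.96), C4A, TBRG4, GAL3ST1 and CPA1, and for HSD17B7 they were NCOA1 (r = 0.98), SDC4, SELENOS, TBCB and PEAK1. With 7 ratios that share their arrays, such values are a description.

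The remaining genes of both routes were described from lists of 30 genes of fatty acid and glycerolipid synthesis, 21 of sterol synthesis and 23 regulators. Of these 74 genes, 31 had a named probe. In fatty acid and glycerolipid synthesis 13 genes were tested over the 7 pigs, and their median difference was 0.05 against 0.09 for all genes. DGAT2, which completes triglyceride synthesis, rose and was the 1 of 13 called over the 7 pigs, where 0.958% of all genes were called higher. The log2 level of DGAT2 was 2.10, 0.95 and 0.97 with Sd and 3.001, 0.79 and 2.63 with YOd in pigs 1, 2 and 4, and 0.80, -0.17, 1.56 and 1.48 with Sd and 1.52, 1.35, 1.25 and 2.17 with WOd in pigs 5 to 8. It was higher with onion in 5 of 7 pigs and lower in pigs 2 and 7. The difference was 0.72 (SE 0.23, raw p 0.011, adjusted p = 0.61), with an exact sign-flip p = 0.063 over the 7 pigs. This call was lost with no scaling between arrays (0.57), without pig 4 (0.56) or pig 6 (0.58), and without the pig as a block (raw p 0.071), and the value was 1.10 without pigs 2 and 7. In YOd/Sd it was 0.80 (SE 0.32, raw p 0.045) and called, against 3.59% of all genes called higher there, but the call was lost in 11 of 16 alternatives and without pig 4 the value was 0.37. The DGAT2 and SCD5 probes stand in the study's list chosen on these arrays, as that of FASN does, so their values are a description.

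ACSL5, an acyl-CoA synthetase, was higher in 7 of 7 pigs by 0.04 to 0.61, with a mean of 0.22 (SE 0.10, raw p 0.046) that stayed under a fold change of 1.5. The exact sign-flip p for ACSL5 was 0.016, the smallest that 7 pigs allow. With ACACB, DGAT2 and ACSL5, 3 of 13 genes had a raw p below 0.05 in the higher direction, and 5.96% of all genes did. The count was 1, DGAT2, with quantile normalization, no scaling, centring on the median gene, normexp, the slide block, without pigs 2 and 7, and without pig 1, 2 or 6. It was 0 without the pig as a block, and ACACB was among the genes counted only without pig 4 or pig 7. Over all genes, 143 had such a p in the higher and 25 in the lower direction, against 18 and 88 with no scaling and 65 and 62 relative to the median gene. The enzymes that supply acetyl-CoA lay at 0, with -0.01 (SE 0.10) for ACLY and -0.01 (SE 0.11) for ACSS2. FADS1, a desaturase of polyunsaturated fatty acids, had 0.05 (SE 0.09) and was at the floor on 4 of 14 arrays. SCD5, a second stearoyl-CoA desaturase, was dim, at the floor or without a value on 4 arrays, and could be tested in YOd/Sd alone. There it stood at a log2 level of -3.19, -4.21 and -1.76 with Sd and -3.71, -4.02 and -3.98 with YOd, a difference of -0.85 (SE 0.42, raw p 0.083) that lay at -0.17 without pig 4 and passed at -1.37 without pig 2. Without pig 2, 79 of 2480 genes were called lower.

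In sterol synthesis 5 of 6 tested genes were lower over the 7 pigs, where 29.03% of all genes were lower, and the median difference was -0.13. In YOd/Sd 6 of 6 were lower (27.1% of all genes), with a median of -0.18, and in WOd/Sd 5 of 6 (39.1% of all genes), with a median of -0.087. These counts rested on single pigs: without pig 4 the YOd/Sd count was 4 of 6 with a median of -0.076, and without pig 8 the WOd/Sd count was 2 of 6 with a median of 0.028. SQLE and MSMO1, 2 of the 6, had a raw p below 0.05 in the lower direction over the 7 pigs, and 1.04% of all genes did. None of the 6 passed the fold change of 1.5 over the 7 pigs, but SQLE did with no scaling (-0.68), relative to the median gene (-0.61), and without pig 2 (-0.62) or pig 5 (-0.59). Without pigs 2 and 7 the same 2 genes had a raw p below 0.05. Of these probes that of SQLE, and not that of MSMO1, stands in the study's list chosen on these arrays.

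SQLE, squalene epoxidase, makes the first oxygenated intermediate of the sterol route. Its levels were 3.08, 3.68 and 3.52 with Sd and 2.78, 3.69 and 2.66 with YOd, and 3.002, 3.76, 3.80 and 3.34 with Sd and 2.84, 3.16, 2.74 and 2.62 with WOd. In the WOd pigs the segments with WOd lay lower in each of the 4, and the groups overlapped. SQLE fell in WOd/Sd by 0.63 on the log2 scale (SE 0.18, raw p 0.011), the 1 of 6 sterol genes called there, where 0.412% of all genes were called lower. Over the 7 pigs it differed by -0.53 (SE 0.14, raw p 0.0033, adjusted p = 0.61; exact sign-flip p = 0.031), lower in 6 of 7 pigs and at the Sd level in pig 2. Without pig 7 the WOd/Sd value was -0.49 and did not pass.

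MSMO1, the sterol-4-alpha-methyl oxidase, was lower in 7 of 7 pigs. On the log2 scale it stood at 4.43, 3.79 and 3.91 with Sd and 3.97, 3.78 and 3.501 with YOd in pigs 1, 2 and 4, and at 3.78, 3.74, 3.97 and 4.17 with Sd and 3.27, 3.57, 3.44 and 3.39 with WOd in pigs 5 to 8. All 4 WOd values lay below all Sd values of these pigs, whereas the YOd and Sd values overlapped. The mean difference was -0.41 (SE 0.11, raw p 0.0038, adjusted p = 0.61), and the exact sign-flip p = 0.016 was the smallest that 7 pigs allow. The other 4 sterol genes were closer to 0 and did not pass, with -0.14 for FDPS, which makes farnesyl diphosphate, -0.11 for HSD17B7, -0.059 for PMVK, a kinase of the mevalonate part, and 0.0034 for NSDHL, with SEs of 0.10 to 0.11.

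INSIG1, the protein that retains SCAP and is itself a target of the sterol regulatory element-binding proteins, had the lowest difference among the regulators. It stood at a log2 level of 3.48, 2.26 and 2.39 with Sd and 2.52, 2.39 and 2.01 with YOd in pigs 1, 2 and 4. In pigs 5 to 8 it was 2.67, 2.51, 2.84 and 2.56 with Sd and 1.78, 1.85, 1.98 and 1.90 with WOd, and these groups did not overlap. INSIG1 fell by 0.77 on the log2 scale in WOd/Sd (SE 0.14, raw p 0.0010, adjusted p = 0.999) and by 0.61 over the 7 pigs (SE 0.14, raw p 0.0011, adjusted p = 0.61), and was the 1 of 10 regulators called over the 7 pigs, where 0.292% of all genes were called lower. In YOd/Sd it differed by -0.41 (SE 0.22, raw p 0.11). The difference between the onions was 0.36 (SE 0.26, raw p 0.20). The exact sign-flip p over the 7 pigs was 0.031. With the mean of its 2 probes the value over the 7 pigs was -0.37 and no longer passed, and without pig 1, 5 or 7 it lay between -0.57 and -0.56, just under 1.5-fold. The INSIG1 and SQLE probes stand in the same list as that of FASN, chosen on these arrays, so their values too are a description.

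Among the other regulators PRKAA2, a catalytic subunit of the AMP-activated kinase that inhibits the carboxylases, differed by 0.33 (SE 0.12, raw p 0.018) and was higher in 6 of 7 pigs. PPARG, a receptor that drives lipid storage, differed by 0.31 (SE 0.12, raw p 0.024). NR1H3, the oxysterol receptor, had 0.10 (SE 0.12), PRKAG1, another kinase subunit, 0.01 (SE 0.18), and SREBF1 -0.04. None of these passed the fold change of 1.5. INSIG2, the second INSIG protein, had -0.14 (SE 0.17, raw p 0.42). STARD4, a sterol carrier, was lower in 7 of 7 pigs, with a mean of -0.21 (SE 0.097, raw p 0.052, adjusted p = 0.652) and ratios from -0.54 to -0.015.

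**Figure D4:**
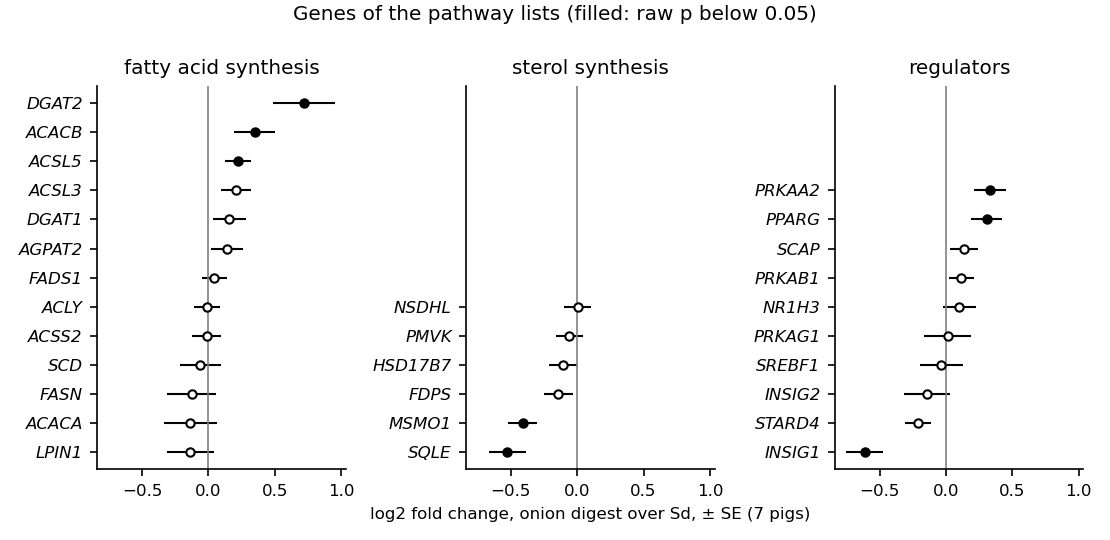
Log2 fold change of onion over Sd with its SE in 7 pigs for the tested genes of fatty acid and glycerolipid synthesis (13), sterol synthesis (6) and their regulators (10), with filled symbols for a raw p below 0.05. The filled symbols of the sterol genes lie left of 0 (MSMO1 and SQLE), and those of the fatty acid and glycerolipid list lie right of 0 (DGAT2, ACACB and ACSL5). In the latter list ACACA, FASN, SCD, ACSS2 and ACLY have open symbols, from -0.14 to -0.01.

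Within pigs, the median ratio of the 6 sterol genes was below that of all genes tested in 7 of 7 pigs. It was -0.024, -0.0022 and -0.35 in pigs 1, 2 and 4 and -0.022, 0.0027, -0.15 and -0.44 in pigs 5 to 8, against 0.19, 0.028, 0.19, 0.051, 0.095, 0.092 and -0.073 for all genes. The median of the 13 genes of fatty acid and glycerolipid synthesis lay between 0.00 and 0.25 in the 7 pigs. The lower ratios of ACACA, FASN and SCD in pigs 1 and 4 stood within this list, whose median there was 0.013 and 0.047. These medians lay below that of all genes (0.19 in both pigs), as did that of pig 7 (0.00 against 0.092). In pigs 2, 5, 6 and 8 the median of this list lay above that of all genes. The sterol medians furthest below 0 were those of pigs 4 and 8. The sterol list held 6 of its 21 genes and the fatty acid list 13 of 30, so most enzymes of both routes were not analysed here.

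**Figure D5:**
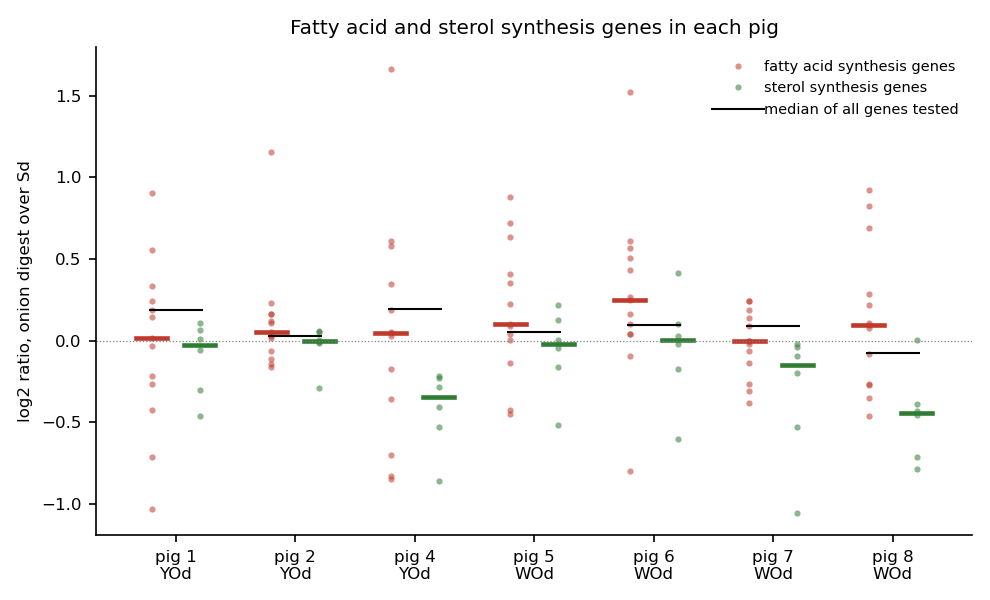
Log2 ratio of onion over Sd in each pig for 13 genes of fatty acid and glycerolipid synthesis (red) and 6 of sterol synthesis (green), with the median of each list as a thick bar and that of all 2401 genes tested in black. The sterol bar lies below the black line and below the red bar in all 7 pigs.

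Markers of cell types were described beside these results. Of the crypt and proliferation markers, 2 of 6 had a named probe, TOP2A and CDK1, and both were lower with onion: -0.43 (SE 0.19, raw p 0.047) and -0.34 (SE 0.14, raw p 0.038) over the 7 pigs, under a fold change of 1.5. Their mean log2 level ran from 1.54 to 2.66 in the Sd segments, from 1.22 to 2.55 in the YOd segments and from 1.65 to 2.56 in the WOd segments. Per pig their median ratio was -0.31, -0.10 and -1.14 with YOd and -0.45, -0.16, 0.32 and -0.86 with WOd. SCD was lower together with them in pigs 1, 2, 4 and 8 (-0.26, -0.11, -0.70 and -0.46) and higher with them in pig 7 (0.19). In pigs 5 and 6 their median was lower while SCD was higher (0.41 and 0.51). Pigs 4 and 8 were the lowest in them and also in the median of the 6 sterol genes (-0.35 and -0.44). The crypt and proliferation markers were higher in pig 7, where INSIG1 and SQLE were low. The 4 enterocyte markers had median ratios of 0.17, 0.21 and 0.62 in pigs 1, 2 and 4 and did not pass. In pigs 5 to 8 these were -0.16, -0.045, 0.16 and 0.19, so higher values occurred with both onions. In pig 1 the median of all genes was 0.19. Among 3 tested leukocyte markers the median difference was 0.23 with YOd and -0.49 with WOd. In WOd/Sd CD3D was -0.49, CD3E 0.02 and CD79A -0.98, the last with a ratio of -4.18 in pig 6. CD3D was the 1 of 3 that was lower there with a raw p below 0.05, as were 16 of 2429 genes. The 4 enteroendocrine and 3 smooth muscle markers had no raw p below 0.05 with either onion, and no goblet cell marker had a named probe. The part of these cell types in the results on lipid genes was not tested.

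Adipocytes also express FASN, SCD and ACACA strongly. Of 6 adipocyte markers PLIN1 was at the floor on all 14 arrays and 5 were tested. In YOd/Sd, ADIPOQ differed by -0.49 (SE 0.20, raw p 0.046) and FABP4 by 0.76 (SE 0.25, raw p 0.022), in opposite directions. LEP differed by -0.58 (SE 0.30), CIDEC by -0.11 (SE 0.14) and CIDEA by 0.36 (SE 0.17) there. The ADIPOQ ratio was -0.63, 0.01 and -0.85 in pigs 1, 2 and 4, the order of the FASN ratios in these pigs, and FABP4 was 0.99, 0.00 and 1.29. In pigs 5 to 8 ADIPOQ was 0.02, 0.23, -0.65 and 0.48, which was not the order of FASN. The ADIPOQ probe stands in the study's list too. The mean log2 level of the 6 markers was between -2.56 and -1.93 in the Sd segments, -2.35 and -1.94 in the YOd segments and -2.66 and -1.80 in the WOd segments. Their part in the FASN, SCD and ACACA values was not tested.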

How the data were processed

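The 14 one-colour arrays held RNA of scraped mucosa, 1 array for each of 2 segments in 7 pigs. Data of pig 3 were not analysed here. Scanner files of Feature Extraction 10.7.3.1 were deposited, and per the file headers the processed signal of a spot is an intensity after background subtraction. A second deposited table gives log2 values of 28369 probes, centred per probe, with a normalization not given in the sources used here. The authors' table served as an alternative.

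Without outlier spots, the mean over a probe's spots was taken relative to the array's 75th percentile and floored at the pooled 40th percentile. Gene symbols came from matching RefSeq accessions to the Sscrofa11.1 annotation, used for names only, and 1 probe through the study's own list of probes. The brightest probe stood for a gene. Genes entered a fit if they exceeded the floor on 3 or more of its arrays in YOd/Sd, 4 in WOd/Sd and 7 in both fits over all pigs. The number of arrays limits the precision.

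Comparisons were made in limma 3.58.1 (R 4.3.3), keeping pig as a blocking factor because the study's methods describe a paired analysis, with Benjamini-Hochberg adjustment over all genes tested, and the fits were tested on simulated data. The same pig gave both segments, and deviations of its 2 arrays from the group means correlated with r from 0.311 (pig 7) to 0.790 (pig 1) over 19559 probes. Two-sided exact permutation tests (sign flips over pigs, and pairings for correlations) used Python 3.11.15 and scipy 1.17.1. The segments of a pig are its only samples of each kind, so p-values measure the spread between pigs.

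Genes named were the members with all their probes, genes of the 3 lipid lists that passed, that the study listed or that were among the 3 largest or 3 smallest differences, by absolute size, of their list over the 7 pigs, and the 5 genes with ratios most like those of FASN, SCD and HSD17B7. INSIG2 and STARD4 were added after their values were seen, and markers are named beside the results they touch. Some genes of the lists are not reported here and are left out of the lists' counts. The members, lists and tests were chosen with earlier results of these data known. Alternatives covered normalization, centring, background (normexp), floor, filter, probe, the authors' values, a fit without the pig block, one with slide as a further block, and each pig left out.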

Additional observations from a re-analysis of the deposited data

Results flagged for a closer look

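ACACA is listed because the test of the difference between its responses to the onions passed the thresholds on raw p and fold, though not the adjustment over all genes. The effect of YOd less that of WOd came to -0.84 on the log2 scale (SE 0.32, raw p 0.028, adjusted p = 0.852 in the limma fit), from ratios of -1.03, 0.03 and -0.85 in the YOd pigs and 0.22, -0.09, -0.06 and 0.82 in the WOd pigs. This call was lost without pig 1 (-0.63), pig 4 (-0.73) or pig 8 (-0.64, raw p 0.071 in the limma fit). On the Sd array of pig 8 the probe was not well above background. The second ACACA probe showed no such difference, with 0.06 (SE 0.37). The YOd pigs and the WOd pigs are different animals, so the onion and the pigs cannot be told apart. No sample stood far enough from the others of its group, in the level or the ratio of the 6 genes, to be listed here.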

How the results depend on the processing

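The number of the 6 genes past the thresholds in YOd/Sd (1, ACACA) was 3 with no scaling between arrays (ACACA, FASN and SCD) and 2 relative to the median gene, with the slide as a block and without pigs 2 and 7, an alternative chosen after seeing the data (ACACA and FASN each time). It was 0 with normexp, the 20th percentile floor, no floor, the mean of all probes, the authors' processed values and no replicate block, and 0 to 2 with 1 pig left out (ACACA and FASN without pig 2, ACACB, higher, without pig 4 and none without pig 1). In the difference between the onions (1, ACACA) it was 2 relative to the median gene (ACACA and SCD), and with the slide block and without pigs 2 and 7 (ACACA and FASN), 0 with normexp, the mean of all probes, the authors' processed values and no replicate block, and 0 to 2 with 1 pig left out. In WOd/Sd and over the 7 pigs it was 0 under every alternative run, counting 1 value per gene. Tested on its own, the dimmest SCD probe passed over the 7 pigs (-0.85), where 69 of 25464 probes were called lower. Without the replicate block ACACA kept -0.62 in YOd/Sd and -0.84 in the difference and did not pass. The slide block uses up pigs 2 and 7, whose arrays lay on different slides, and gave the values found without them.

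Values near 0 changed sign, and the cause was not tested. With the mean of all probes, FASN (0.059) and SREBF1 (0.054) over the 7 pigs, SREBF1 in YOd/Sd (0.033), SCD in WOd/Sd (-0.053) and ACACB in the difference (-0.10) did so. ACACB in WOd/Sd was -0.16 with the 20th percentile floor and with no floor. With the slide block and without pigs 2 and 7, the difference was -0.11 for ACACB and 0.011 for HSD17B7, and over the 7 pigs ACSS2 was 0.011 and PRKAG1 -0.11. FADS1 over the 7 pigs was -0.056 with no scaling, -0.037 relative to the median gene, -0.046 with either lower floor and 0.0 with the authors' values. In the same order of no scaling, median gene and authors' values, NSDHL was -0.15, -0.079 and -0.019 and PRKAG1 -0.14, -0.070 and -0.0094, and PRKAG1 was -0.013 with normexp. NR1H3 was -0.051 with no scaling. The correlation of ACACA with SREBF1 was 0.10 relative to the median gene, and that with HSD17B7 0.028, or 0.013 with quantile normalization.

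With 1 pig left out, over the 7 pigs ACACA ran from -0.30 to 0.012, SCD from -0.16 to 0.044, SREBF1 from -0.17 to 0.064, ACLY from -0.042 to 0.044, ACSS2 from -0.061 to 0.048, NSDHL from -0.065 to 0.040 and PRKAG1 from -0.13 to 0.17. In WOd/Sd, FASN ran from -0.12 to 0.26, SREBF1 from -0.10 to 0.37 and HSD17B7 from -0.14 to 0.044, and ACACB in the difference from -0.031 to 0.63. Among the correlations, ACACA ran from -0.22 to 0.34 with ACACB, from -0.62 to 0.11 with HSD17B7, from -0.064 to 0.77 with SCD and from -0.29 to 0.47 with SREBF1. ACACB ran from -0.12 to 0.65 with HSD17B7, from -0.29 to 0.11 with SREBF1 and from -0.11 to 0.44 with SCD, and FASN with HSD17B7 from -0.089 to 0.60.

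Counts over all genes varied more: the 111 genes called in YOd/Sd were 10 with the authors' values, 20 with no replicate block, 328 without pig 2 and 1303 with every probe counted. Of the 111, 88 were higher and 23 lower, against 7 higher and 96 lower with no scaling and 38 and 46 relative to the median gene. SQLE and MSMO1 kept a raw p below 0.05 over the 7 pigs in every alternative in which the lists were counted. The alternatives reuse the same arrays, and the SQLE probe was chosen on them by the study, so its values stay a description.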
